A study of Mus musculus with 7 samples.

Results

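Nfkbia, Icam1, Casp4, Casp12 and Jun are 5 genes of inflammatory and stress signalling that were picked by symbol from a table comparing megakaryocyte progenitors of old and young mice. They are 5 of the 769 gene models in that table, with 1 gene model each. Megakaryocyte progenitors are bone marrow cells committed to making megakaryocytes, the parents of platelets. Here they were sorted as cells without lineage markers or Sca1 and with cKit, CD150 and CD41. RNA-seq was done on 3 libraries labelled young, from mice aged 3 months, and 4 labelled old, given as 18 to 20 months in the source label and as 20 in the growth protocol. Flt3-cre and mTmG were present in every mouse; mTmG is a reporter in which recombinase activity in a cell or its ancestor switches the colour from Tomato to GFP, and cells of either colour were sorted. Titles of the young libraries carry 1 prefix (mkpgy) and those of the old libraries carry mkpgo or mkpto, so age and whatever the prefixes mark cannot be told apart. The strain is given as C57BL/6, except for 1 old library given as C57BL/7, and no label ties a library to a mouse. The p-values then measure only the spread between these samples, which may be technical.

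NF-kB is a family of transcription factors held in the cytoplasm by inhibitors called IkB proteins. Signals from cytokine and microbial receptors lead to the destruction of IkB, which frees NF-kB to enter the nucleus. The gene for the inhibitor IkB-alpha, Nfkbia, is itself an NF-kB target, so the pathway makes its own brake. Icam1, a cell surface ligand for leukocyte integrins, is a classical NF-kB target as well. Casp4 (the mouse protein is also known as caspase-11) and Casp12 are grouped with the inflammatory caspases, a set of proteases named for links to innate immune defence. Jun is a subunit of AP-1, a transcription factor switched on quickly by stress and growth signals through the JNK kinases.

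The DNA just before the start site of each gene is shown because all 5 genes were higher in old and the textbook regulators of several of them bind there. Sequences are from RefSeq (GRCm38.p6, the same assembly as mm10), read 5′ to 3′ on the gene's strand, and they end before the first base annotated as transcribed. All 5 genes were found in that table. The capitals mark matches to 4 motifs.
Nfkbia (chr12:55492648-55492897, minus strand): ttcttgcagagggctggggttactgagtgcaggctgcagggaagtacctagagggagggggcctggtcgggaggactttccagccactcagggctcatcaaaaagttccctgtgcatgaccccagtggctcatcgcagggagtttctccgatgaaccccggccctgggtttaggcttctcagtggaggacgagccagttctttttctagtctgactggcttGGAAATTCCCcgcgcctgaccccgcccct
Icam1 (chr9:21015690-21015939, plus strand): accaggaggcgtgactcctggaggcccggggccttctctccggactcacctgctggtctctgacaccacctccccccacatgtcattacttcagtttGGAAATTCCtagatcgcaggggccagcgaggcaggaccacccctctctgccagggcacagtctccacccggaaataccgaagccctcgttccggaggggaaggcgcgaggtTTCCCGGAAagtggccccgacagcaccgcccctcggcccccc
Casp4 (chr9:5308599-5308827, plus strand): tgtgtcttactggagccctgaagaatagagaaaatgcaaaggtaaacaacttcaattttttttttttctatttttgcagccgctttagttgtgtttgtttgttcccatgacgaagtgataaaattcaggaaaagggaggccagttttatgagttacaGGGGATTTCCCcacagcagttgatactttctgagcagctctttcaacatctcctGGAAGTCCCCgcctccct
Casp12 (chr9:5345226-5345429, plus strand): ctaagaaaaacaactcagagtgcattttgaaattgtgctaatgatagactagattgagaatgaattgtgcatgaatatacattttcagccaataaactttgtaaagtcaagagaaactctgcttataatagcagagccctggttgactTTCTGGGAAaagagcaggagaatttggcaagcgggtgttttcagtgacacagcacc
Jun (chr4:95052223-95052472, minus strand): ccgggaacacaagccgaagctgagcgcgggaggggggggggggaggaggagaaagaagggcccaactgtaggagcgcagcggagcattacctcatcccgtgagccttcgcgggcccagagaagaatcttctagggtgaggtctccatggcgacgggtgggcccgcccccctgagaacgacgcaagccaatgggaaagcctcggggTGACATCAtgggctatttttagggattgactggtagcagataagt

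The motifs were searched on both strands in the 250 bases before each RefSeq start site, with overlaps allowed, and were chosen after these sequences had been seen. Distances are counted from that site. The last 21 bases of the Casp4 window and the last 46 of the Casp12 window are annotated as transcribed and are not shown. Casp4 has 2 RefSeq start sites, of which the 1 farther upstream was used. The kB consensus, the general NF-kB recognition motif, matched in the windows of Nfkbia and Casp4. The Nfkbia match lies 20 to 29 bases before the start site. Casp4 has matches on both strands 83 to 93 bases before its start site, which overlap each other, and a further match 30 to 39 bases before it. The kB consensus occurs in 7.25% of all 32851 windows of that length. The shorter sequence GGAAATTCC, part of the Nfkbia match, also occurs in the Icam1 window, 145 to 153 bases before the start site, and in 0.286% of all windows. TGACATCA, a variant AP-1 and CREB-type element, occurs 38 to 45 bases before the start site of Jun and in 2.93% of all windows. The palindromic pattern TTCNNNGAA, the form recognised by STAT factors, occurs in the Icam1 window and at 2 places in the Casp12 window, of which the 1 nearer to the start site lies in bases not shown, and in 7.02% of all windows. The common AP-1 motif TGANTCA, which 6.75% of all windows hold, was not found in the 5 windows. A match of letters is a description of the sequence and was not tested for binding or function.

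All 5 genes were higher in the old libraries in the authors' deposited table, by between 3.76-fold and 20.2-fold as ratios of the group means. Casp12 rose most and Casp4 least. The 5 genes were chosen with these results known, so their count is a description. Over all 11778 gene models that the authors adjusted for, 302 (2.56%) were called higher and 185 (1.57%) lower in the authors' deposited table, where called means an adjusted p under 0.05. All 5 genes also passed at 0.01, as did 139 gene models (1.18%) with higher values and 180 (1.53%) in either direction. In the authors' deposited table the 5 genes had a median log2 fold change of 2.40, beside 2.37 for all higher calls, and their median standard error (SE) was 0.50 against 0.62. In the authors' deposited table, the share of all higher calls with a smaller log2 fold change than the gene itself ran from 35.4% for Casp4 to 80.8% for Casp12. The table stops at an adjusted p of 0.0993, so a gene described as not listed has no value here and may have changed or not. Shares given for gene lists are over the genes of the list, including any outside the 11778. Their base thus differs from that of the shares over all gene models. It gives 1 mean of normalized counts per group and no value per library, so whether single libraries of the groups overlap cannot be seen. In sorted bulk samples, more cells of a type and more RNA per cell cannot be told apart.

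**Figure D1:**
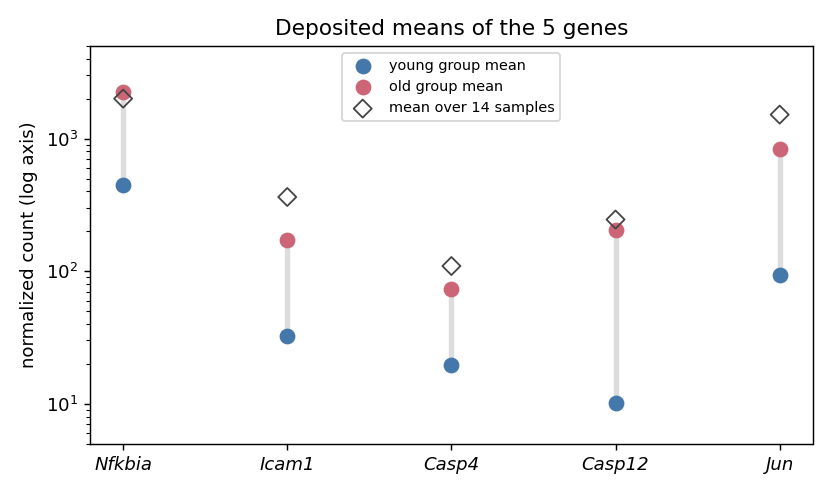
Deposited means of the 5 genes in normalized counts on a log axis: the young group (blue), the old group (red) and 14 samples that include libraries outside this series (open diamonds). The old mean lies above the young mean for every gene, from 19.5 to 73.3 for Casp4 up to 450 to 2259 for Nfkbia, and the 14-sample mean lies above both for all genes but Nfkbia.

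Nfkbia, the inhibitor that closes the NF-kB feedback loop, had a mean of 450 normalized counts in young and 2259 in old in the authors' deposited table. This is a 5.02-fold rise (log2 fold change 2.33, SE 0.48, the authors' DESeq adjusted p = 0.000304). The 95% interval computed from the authors' SE in the deposited table runs from 2.61-fold to 9.65-fold. Nfkbia (kgCluster5756; chromosome 12, 55489410 to 55492647, minus strand, mm10) was among the more abundant genes that rose: its young mean was above that of 91.4% of all higher calls in the authors' deposited table. No stretch of 40 bases of its transcripts occurs in a transcript of another gene.

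The other IkB genes did not follow 1 direction. Among 11 genes of NF-kB subunits and IkB proteins, 2 were called higher and 1 lower in the authors' deposited table, where 4.13% of all adjusted gene models were called in either direction. Without the chosen Nfkbia, 1 of 10 was called higher and 1 lower. Bcl3, an atypical IkB protein that acts in the nucleus, rose from 17.0 to 108 normalized counts (log2 fold change 2.67, SE 0.83, the authors' DESeq adjusted p = 0.0395 in the deposited table). Nfkbib, the classical inhibitor IkB-beta, fell from 1742 to 1101 (-0.66, SE 0.18, the authors' DESeq adjusted p = 0.0161 in the deposited table), although recentring on the median of the lower calls, which by construction turns 92 of the 185 lower calls positive, put it at 0.05 and says nothing about this gene in particular. Per kilobase of annotated exon, Nfkbia stood at 0.348 times the level of Nfkbib in young and at 2.76 times in old, computed from the group means of the authors' deposited table. On this scale the level of IkB-alpha transcript was below that of IkB-beta in young and above it in old, with no replicate spread for either ratio. The other 8 genes of the list, among them Rela, Relb, Rel, Nfkb1 and Nfkb2, were not listed and have no value here.

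Of the 38 genes upstream of NF-kB, 1 was called, Tnfrsf1a, the TNF receptor through which TNF activates the pathway. It rose from 159 to 407 normalized counts (log2 fold change 1.36, SE 0.35, the authors' DESeq adjusted p = 0.00699 in the deposited table). The share called in that list, 2.63%, was no higher than the 4.13% over all gene models. Among 42 feedback and target genes, 3 were called, all higher: Nfkbia, Icam1 and Tnip3. That is 7.14% of the list, but without the chosen Nfkbia and Icam1 it is 1 of 40 (2.5%), beside 2.56% called higher over all gene models. Tnip3, which encodes a partner of the NF-kB-restraining enzyme A20, rose from 24.2 to 150 normalized counts (2.63, SE 0.42, the authors' DESeq adjusted p = 2.68e-07 in the deposited table). Its adjusted p was smaller than that of any of the 5 genes. A further 3 targets were listed above their young level without passing in the authors' deposited table: Irf1 (1.02, SE 0.33, DESeq adjusted p = 0.0525), Ier3 (1.62, SE 0.56, adjusted p = 0.0698) and the chemokine gene Ccl4, with means of 0 in young and 3.33 in old (adjusted p = 0.0837). The gene for A20, Tnfaip3, and the cytokine genes Tnf, Il1b and Il6 were not listed.

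Icam1, the adhesion molecule, had a mean of 32.6 normalized counts in young and 170 in old in the authors' deposited table. The 5.23-fold rise (log2 fold change 2.40, SE 0.50, the authors' DESeq adjusted p = 0.00034) has a 95% interval from 2.67-fold to 10.4-fold. Its log2 fold change was close to that of Nfkbia (2.40 and 2.33), while its level was much lower. Per kilobase of exon, Icam1 stood at 7.47 in young and 39.1 in old and Nfkbia at 279.7 and 1403, computed from the authors' deposited table. Icam1 (kgCluster29278; chromosome 9, 21015985 to 21028817, plus strand) overlaps the antisense gene Gm47079 in 511 exonic bases. Whether counting used strand is not stated in the labels, so reads of the 2 genes within these 511 bases cannot be told apart. Of 4309 runs of 40 bases in its transcripts, 592 (13.7%) also occur in transcripts of other genes, 472 of them in Gm47079. Counted by gene, 1886 other genes hold at least 1 of these runs on either strand.

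The genes of Icam1's family neighbours and integrin receptors were not listed. Of 27 genes of Icam1 partners and leukocyte adhesion, 3 (11.1%) were called, all higher, in the authors' deposited table, beside 4.13% called over all gene models. Without the chosen Icam1 the count is 2 of 26 (7.69%), beside 2.56% called higher over all. Besides Icam1 these were Selp and Selplg, which encode P-selectin and its leukocyte ligand PSGL-1. Selp rose from 496 to 2358 normalized counts (log2 fold change 2.25, SE 0.68, the authors' DESeq adjusted p = 0.0304 in the deposited table). Selplg rose from 653 to 1284 (0.98, SE 0.27, the authors' DESeq adjusted p = 0.0161 in the deposited table). F11r, a junctional adhesion molecule of platelets, averaged 432 and 1345 in the authors' deposited table without passing (1.64, SE 0.59, DESeq adjusted p = 0.0887). The integrin chains that bind ICAM-1, Itgal, Itgam and Itgb2, were not listed, nor were Icam4 and Icam5, which lie 556 and 3256 bases from Icam1.

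The inflammatory caspases Casp4 and Casp12 both rose. Casp4, whose protein senses bacterial lipopolysaccharide inside the cell, averaged 19.5 normalized counts in young and 73.3 in old, per the authors' deposited table. It rose 3.76-fold (log2 fold change 1.91, SE 0.43, the authors' DESeq adjusted p = 0.0013), with a 95% interval from 2.10-fold to 6.75-fold. Casp12, a caspase associated with the endoplasmic reticulum in mouse, averaged 10.2 normalized counts in young and 206 in old, per the authors' deposited table. It rose 20.2-fold (4.33, SE 0.78, the authors' DESeq adjusted p = 1.01e-05), with a 95% interval from 7.02-fold to 57.7-fold.

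The 2 caspase genes changed places in the order of their mean levels, for which the table gives no spread. Per kilobase of exon, Casp12 stood at 2.66 and Casp4 at 5.26 in young, and at 53.6 and 19.8 in old, computed from the authors' deposited table. Casp12 made up 33.6% of their summed level per kilobase in young and 73.1% in old. The 95% intervals of their log2 fold changes, 1.07 to 2.76 for Casp4 and 2.81 to 5.85 for Casp12, did not overlap, whereas those of the other 9 pairs among the 5 genes did. The difference between Casp4 and Casp12 was not tested, since the deposited table gives no covariance between genes. Casp4 (kgCluster29133; 5308828 to 5336783) and Casp12 (kgCluster29134; 5345430 to 5373032) are neighbours on the plus strand of chromosome 9, 8647 bases apart. Casp1, the caspase that matures interleukin-1 beta, lies 1563 bases from Casp4 on the same strand and was not listed. No run of 40 bases is shared between transcripts of Casp4 and Casp12, and 29 of 3742 runs of Casp4 (0.775%) occur in transcripts of other genes.

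The inflammasome is the complex that activates inflammatory caspases. Other called genes of the list for inflammatory caspases and the inflammasome rose by less than Casp12, and all but Txnip by less than Casp4. Of the 31 genes in this list, 7 (22.6%) were called, beside 4.13% over all gene models, and all were higher in the authors' deposited table. Their log2 fold changes ran from 0.99 to 4.33 with a median of 1.69, beside 2.37 over all higher calls. Without the chosen Casp4 and Casp12 the count is 5 of 29 (17.2%), beside 2.56% called higher over all gene models. This list was compiled with earlier results of these data known and is no independent evidence of a direction. Guanylate-binding proteins expose bacterial membranes to caspase-11. Of their genes, Gbp2 rose from 63.7 to 127 normalized counts (0.99, SE 0.26, the authors' DESeq adjusted p = 0.00773 in the deposited table). Gbp3 rose from 14.8 to 47.0 (1.69, SE 0.47, the authors' DESeq adjusted p = 0.0163 in the deposited table). In the authors' deposited table Il18, a cytokine matured by caspase-1, rose from 9.75 to 29.0 (1.49, SE 0.48, DESeq adjusted p = 0.047). The authors' deposited table also has Pstpip1, a partner of pyrin, higher by 1.11 (SE 0.29, 86.9 to 186 normalized counts), and Txnip, the thioredoxin-interacting protein, higher by 2.07 (SE 0.65, 547 to 2292). The sensors Nlrp3, Nlrc4 and Aim2, the adaptor Pycard and the pore-forming protein gene Gsdmd were not listed and have no value here. None of the 18 genes of apoptotic caspases and their partners was listed, so no call at the authors' DESeq adjusted p under 0.05 was made among them and no count at an unadjusted p can be given.

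**Figure D2:**
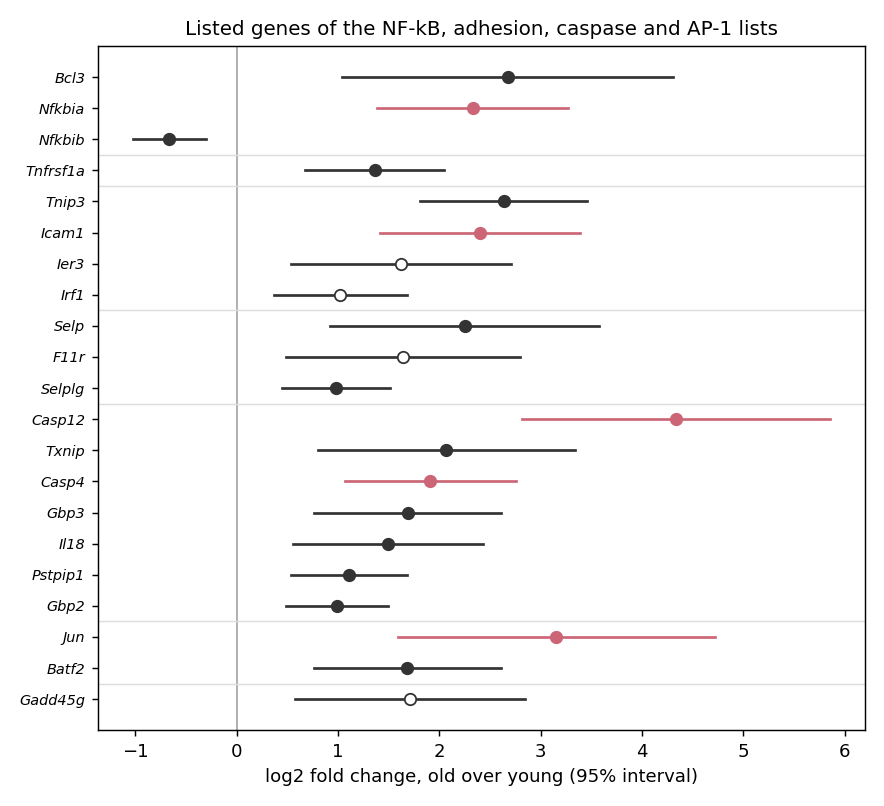
Old over young log2 fold changes and their 95% intervals for every listed gene of the NF-kB, adhesion, caspase, AP-1 and immediate early lists with a young mean above 0, from the authors' values; red marks the 5 genes, filled points an adjusted p under 0.05, and grey lines separate the lists (a gene of several lists is drawn in the first). Nfkbib, at -0.66, is the only gene to the left of 0, and Casp12, at 4.33, lies farthest to the right.

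Jun, the AP-1 subunit, had means of 94.3 normalized counts in young and 839 in old in the authors' deposited table. It rose 8.89-fold (log2 fold change 3.15, SE 0.80, the authors' DESeq adjusted p = 0.00626). The 95% interval from 3.01-fold to 26.3-fold is wide: the SE was larger than that of 70.2% of all higher calls in the authors' deposited table. Jun had the largest SE and the largest adjusted p of the 5 genes. Jun (kgCluster19945; chromosome 4, 95049034 to 95052222, minus strand) is overlapped in 232 exonic bases by the antisense gene Junos. Of its 3150 runs of 40 bases, 193 (6.13%) also occur in transcripts of Junos.

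Jun was nearly alone among its relatives in the table. Of 27 AP-1 and JNK genes, 2 (7.41%) were called in the authors' deposited table, beside 4.13% over all gene models, and both were higher. Without the chosen Jun the count is 1 of 26 (3.85%), which is near the overall share. That gene is Batf2, a leucine zipper protein that pairs with Jun proteins. Batf2 rose from 12.6 to 39.6 normalized counts (log2 fold change 1.68, SE 0.47, the authors' DESeq adjusted p = 0.0164 in the deposited table). Junb, Jund, Fos, Fosb and Atf3 were not listed. Of 36 immediate early and dissociation stress genes, which respond within minutes to handling of cells, Jun was the only 1 called in the authors' deposited table. The share called, 2.86% of the 35 with an annotated symbol, was no higher than the 4.13% over all gene models. Without the chosen Jun, 0 of the other 35 genes were called. As 33 of the 36 were not listed, a response to handling was not tested. Gadd45g (1.71, SE 0.58, DESeq adjusted p = 0.0645) and Ier3 were listed as higher without passing in the authors' deposited table, and Egr1, Ier2, Dusp1 and Nr4a1 were not listed.

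The genes nearest to each of the 5 in the plane of log2 young mean and log2 old mean were taken as most alike, which rests on 2 group means. Nfkbia lay nearest to Selp and Txnip, at distances of 0.151 and 0.28. Casp4 had the closest match of all in Pcdhgc5, a protocadherin gene, with 19.1 and 74.3 normalized counts per the authors' deposited table, and its next was Cebpd. Jun lay nearest to Galnt6 (102 and 787) and Tgm2 (110 and 781) in the authors' deposited table. Icam1 lay nearest to Cd53 (36.4 and 160) and Bex1 (36.5 and 153), neither of which passed in the authors' deposited table (DESeq adjusted p = 0.0647 and 0.0917). Their log2 fold changes of 2.14 and 2.07 were smaller than that of Icam1 and their SE of 0.72 and 0.75 larger in the authors' deposited table. Casp12 had no close match: its nearest genes, Phactr1 and Ctss, lay at distances of 0.579 and 0.584.

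**Figure D3:**
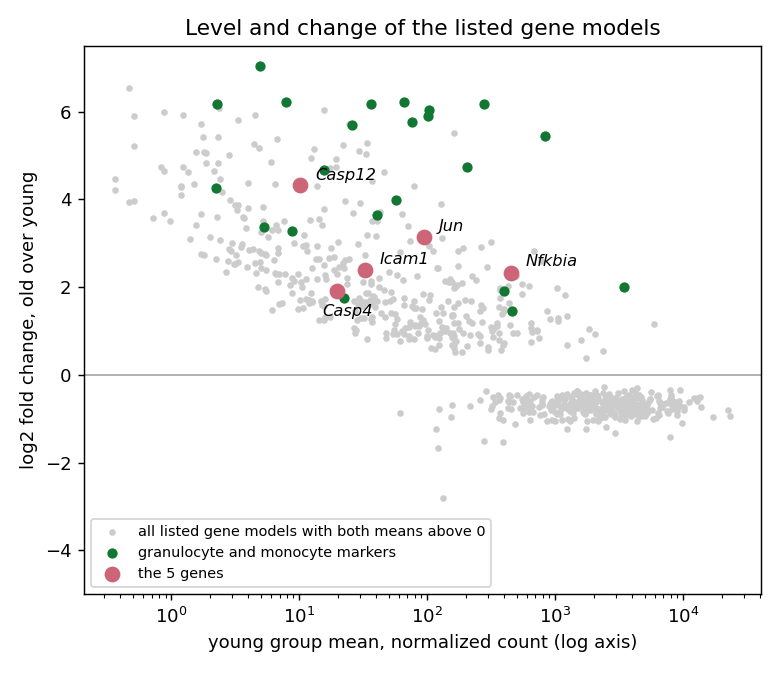
Young group mean (normalized counts, log axis) against old over young log2 fold change for the 757 listed gene models with both means above 0, with the 5 genes in red and granulocyte and monocyte markers in green. The 5 genes lie among the genes that rose, from 1.91 (Casp4) to 4.33 (Casp12), and below most of the green markers, whose called members have a median of 5.57.

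Markers of other cell types moved in the same libraries. Of 38 granulocyte and monocyte markers, 20 (52.6%) were called, all higher, beside 2.56% called higher over all gene models. Cebpe and Ly6c2 were listed as higher without passing, and the other 16, among them Mpo, Elane and Ly6g, were not listed. The marker lists too were compiled with earlier results of these data known and are no independent evidence of a direction. The median change of the 20 was 5.57 (log2) in the authors' deposited table. Summed over these 20, the group means of the authors' deposited table were 6093 in young and 106143 in old. In the authors' deposited table the called markers with the smallest adjusted p were Cd68 (40.7 to 509), Csf3r (8.72 to 85.8), Csf1r (5.32 to 56.8), Retnlg (4.91 to 648), Ltf (276 to 19916) and Camp (102 to 6129). The median SE of the 20 called markers was 1.40, and the SE of the 5 genes ran from 0.43 to 0.80 in the authors' deposited table. Of 17 markers of MHC class II presenting cells, 4 (23.5%) were called higher, Cd74, H2-Aa, H2-Eb1 and H2-Ab1, with SE from 0.47 to 0.65. Their summed means rose from 496 to 10905 in the authors' deposited table. The other 13 were not listed. Of 19 stroma and endothelium markers, 2 (10.5%) were called higher in the authors' deposited table, Lpl (22.8 to 354) and Bgn (13.8 to 104). The other 17 were not listed. Granulocytes, monocytes and endothelium also express Nfkbia, Icam1 and Jun, and the part of these cells in the rise of the 5 genes was not tested.

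Markers of the sorted cell type gave few values. Of 32 megakaryocyte and platelet markers, 1 (3.12%) was called, Selp, beside 4.13% called over all gene models. Mmrn1 (2.14, SE 0.75) and Slamf1 (1.54, SE 0.55), which encodes CD150, were listed without passing in the authors' deposited table. Itga2b, Kit, Pf4, Gp9 and the others were not listed and have no level here, so the labelled cell type could not be checked against them.

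**Figure D4:**
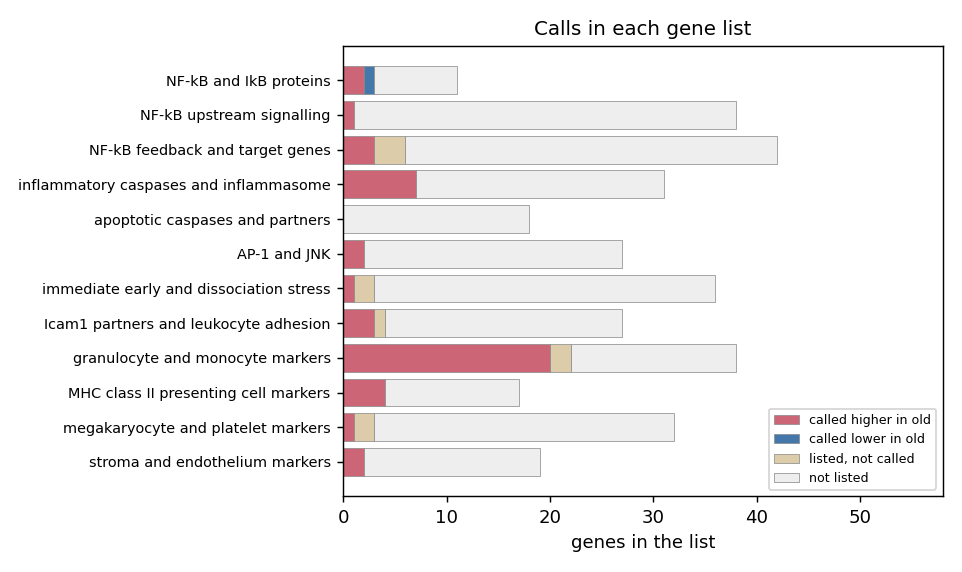
Number of genes in each list that were called higher in old (red), called lower (blue), listed without passing (tan) or not listed (grey). The inflammatory caspase and inflammasome list has 7 red genes of 31, the granulocyte and monocyte list has 20 of 38, and the apoptotic caspase list has none. Over all gene models 2.56% were called higher.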

How the data were processed

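RNA from sorted megakaryocyte progenitors (3 young and 4 old libraries) was extracted with Trizol and made into NEBNext Ultra libraries, per the labels' protocols. The submitters' processing notes name Bowtie2, STAR and DESeq and the build mm10, without versions or roles. No label or header states the counting method, the strand setting or the depth of a library. The precision of a value is therefore the authors' SE.

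The authors deposited 1 table of their own comparison. Per the file headers it holds the mean normalized count of each group and of 14 samples (a scaled signal, with none per library), the log2 fold change with its SE, the Wald score, and p-values before and after adjustment. Its 769 gene models reach an adjusted p of 0.0993. Deposited p-values and adjusted p-values imply 11778 gene models in the adjustment. In 98.5% of 757 gene models the deposited log2 fold change was within 0.1 of the log2 ratio of the means. The old column's name matches no single title, and the mean over 14 samples allows at most 4.08 old libraries. Planned count models could not be run without values per library.

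Intervals are the log2 fold change plus or minus the normal 95% limit times SE. Exon lengths and positions are from GENCODE M21 (GRCm38). The gene models that the authors counted may differ in length, which bears on every level per kilobase. The members and gene lists were chosen with earlier results of these data known. Genes were named by rule: called genes of each list (the 6 with the smallest adjusted p where more than 8), listed near misses of the signalling lists, the 2 nearest gene models to each member, and listed neighbours within 200000 bases. Near misses of the marker lists and genes not listed were named beyond this rule. The recovery of the number of adjusted gene models and the coverage of the 95% intervals were tested on simulated data. The other steps were not. Python 3.11.15, pandas 2.3.3, numpy 2.4.6 and SciPy 1.17.1 were used.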

Additional observations from a re-analysis of the deposited data

How the results depend on the processing

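None of the alternatives that could be computed was able to turn the direction of the 5 genes, so they bear on the size and on the threshold only. With Bonferroni adjustment over all 11778 gene models, Casp4 (log2 fold change 1.91, p = 0.106 from the authors' DESeq p) and Jun (3.15, p = 0.923) no longer passed, which left 3 of the 5 genes. All 5 passed at an adjusted p limit of 0.01. After 10 normalized counts were added to both means, the log2 ratio of Casp12 was 3.42 against 4.33, by construction since its young mean is near 10.2. Recentring added 0.72, the size of the median lower call, to every fold change and so could only raise the 5 genes. In 2 settings added after the data were seen, 4 of the 5 genes had group means averaging at least 50, and all 5 had a lower 95% bound of at least 1.

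At an adjusted p limit of 0.01 the calls fell to 1 of 11 for the NF-kB and IkB list (Nfkbia) and 4 of 31 for the inflammasome list. These 4 were Casp12, Casp4, Gbp2 and Pstpip1. They fell to 1 of 27 for AP-1 (Jun), 1 of 27 for Icam1 partners (Icam1) and 1 of 19 for stroma (Lpl). For megakaryocyte markers 0 of 32 were left (1 in the authors' DESeq table at 0.05). Over all gene models 180 (1.53%) passed at 0.01. Without the chosen genes only Gbp2, Pstpip1 and Lpl were left in these lists. In lists not named above, 15 of 38 granulocyte and monocyte markers and 4 of 17 MHC class II markers passed at 0.01. Tnfrsf1a of the upstream list and Tnip3 of the feedback and target list passed as well. No count at an unadjusted p under 0.05 can be made. A mean over 14 samples of at least 50 changed no such count by more than 1.5 times. No paired analysis was possible because the deposited columns are group means without replicate numbers. For the same reason omission of single libraries, other normalizations and other count models were not run.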

Other observations

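The table's mean over 14 samples covers more samples than the 7 in this series. For Icam1 this mean was 363 normalized counts, against 32.6 in young and 170 in old in the authors' deposited table. It also exceeded both group means for Jun (1517), Casp12 (245) and Casp4 (109), and lay between them for Nfkbia (2003). If the libraries behind both group means are among the 14, the remaining samples averaged higher than the old group for these 4 genes. If all 7 libraries of this series are among them, the other 7 averaged 614 for Icam1, 3.60 times the old mean, 2514 for Jun, 368 for Casp12, 168 for Casp4 and 2521 for Nfkbia. No label or header says what those samples are. Among all 302 higher calls, 211 (69.9%) had a 14-sample mean above both group means in the authors' deposited table. This held for 7 of 7 called genes of the inflammasome list and for 5 of 20 called granulocyte and monocyte markers in the authors' deposited table. These counts are descriptions and were not tested.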
